A study of Mus musculus with 3 samples.

Results

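Apoe, Trem2 and 7 further genes of lipoprotein sensing and cholesterol export were followed through the single-cell transcriptomes of Cd11b-sorted mouse brain cells. The other 7 were Tyrobp, Abca1, Abcg1, Apoc1, Apoc2, Soat1 and Nr1h3. The 9 genes were taken by symbol from the gene table, where they fill 10 of 27998 rows, because Apoc2 is listed under 2 identifiers. They were chosen by their measured levels in these libraries, among them the Apoe CPM of microglia-like cells, so every level below is a description and none was tested.

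Apoe is the main apolipoprotein of the brain: it carries cholesterol and phospholipid in lipoprotein particles, and Apoc1 and Apoc2 are small apolipoproteins encoded beside it. Trem2 is a surface receptor of microglia and some macrophages that binds lipids and lipoproteins, Apoe among them, and signals through the adaptor Tyrobp (also called DAP12). Abca1 loads cholesterol and phospholipid onto apolipoproteins, Abcg1 passes cholesterol to particles that already hold lipid, Nr1h3 encodes the sterol-sensing nuclear receptor LXR alpha, which drives transcription of Apoe, Abca1 and Abcg1 in macrophages, and Soat1 esterifies cholesterol for storage in droplets.

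The cells came from C57BL6J female mice aged 5 months, from brain without the cerebellum, and were profiled with 10x Genomics 3′ chemistry. The untreated group (Ctrl) was 1 animal. In the group called D0, 2 animals were pooled after 14 days of PLX5622 in the diet (1200 mg/kg), an inhibitor of Csf1r, the receptor on which microglia depend for survival. In the group called D2, 1 animal had the same 14 days of PLX5622 and then control diet for 2 days. A protocol in the labels mentions 4 samples handled side by side, and 3 are analysed here. The labels give no genotype or transgene beyond the strain, and the sort keeps every cell with surface Cd11b, other myeloid cells and NK cells included.

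Each cell barcode ended in 1, 2 or 3, and these sets are called library 1, library 2 and library 3. No label or file used here ties a library to Ctrl, D0 or D2, so the libraries are set side by side and the groups are not compared. The libraries held 1263, 599 and 287 cells with 6410990, 4022293 and 2831118 counts of unique molecular identifiers (UMIs), at medians of 3662, 6188 and 8172 UMIs per cell, and shared 0 barcodes. After filtering, 2135 cells fell into 13 clusters, of which 11 were named from marker genes as 9 classes, each written with the ending "-like". The members and the pathway genes described here were left out of the clustering. Microglia-like cells were 1071 of 1261 cells in library 1 (84.9%), 65 of 594 in library 2 (10.9%) and 1 of 280 in library 3 (0.357%), so that libraries 2 and 3 consisted mostly of cells without the labelled identity. Levels are UMIs summed over the cells of a class and divided by the class total, in counts per 1e6 UMIs (CPM). Brackets hold exact Poisson 95% intervals for levels and exact Clopper-Pearson intervals for shares. Both cover counting error only, not the spread between animals or cells. Each group is 1 sample, so there is no replicate and no p-value.

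The sequences just upstream of 3 members are shown first, because these genes followed 3 different patterns below. Apoe differed most between the microglia-like cells of libraries 1 and 2 among members with at least 50 UMIs. Trem2 was high in both, and Abca1 was at a low level in both (78.0 and 67.1 CPM). They are the 250 bases before the annotated start, read 5′ to 3′ on the strand of the gene, from RefSeq on GRCm38.p6, and 6 of the 9 members had an entry. Apoe has 3 listed start sites, and the window shown belongs to site 1, at the end of the annotated gene. Apoe lies on the minus strand of chromosome 7 (19696109 to 19699188), Trem2 on the plus strand of chromosome 17 (48346401 to 48354147) and Abca1 on the minus strand of chromosome 4 (53030787 to 53159895), all annotated as protein-coding. Capitals mark matches to GAGGAA, the core of PU.1 sites, to TATAAA, the TATA box, to CACGTG, an E-box, and to a loose form of DR4, the direct repeat bound by LXR, with some letters left free in each half-site, each searched on both strands.
Apoe (chr7:19699189-19699438): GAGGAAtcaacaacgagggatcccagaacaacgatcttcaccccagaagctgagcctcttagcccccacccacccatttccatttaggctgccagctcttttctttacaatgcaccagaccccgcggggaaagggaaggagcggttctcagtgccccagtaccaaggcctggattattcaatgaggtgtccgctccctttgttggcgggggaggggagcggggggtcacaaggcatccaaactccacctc
Trem2 (chr17:48346151-48346400): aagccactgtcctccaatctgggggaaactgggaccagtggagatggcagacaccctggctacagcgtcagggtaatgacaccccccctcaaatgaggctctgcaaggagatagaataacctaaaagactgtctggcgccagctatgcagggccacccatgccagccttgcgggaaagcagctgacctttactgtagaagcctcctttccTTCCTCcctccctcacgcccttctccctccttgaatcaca
Abca1 (chr4:53159896-53160145): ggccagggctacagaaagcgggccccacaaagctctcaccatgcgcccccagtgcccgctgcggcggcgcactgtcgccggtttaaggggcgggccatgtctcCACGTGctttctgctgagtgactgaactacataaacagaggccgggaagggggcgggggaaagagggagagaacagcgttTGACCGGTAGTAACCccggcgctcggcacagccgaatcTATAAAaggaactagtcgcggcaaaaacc

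The Apoe window held GAGGAA at its far end, from base -250 to -245 before the start, and the Trem2 window held its complement TTCCTC from -40 to -35. The Apoe windows not shown held TATAAA from -96 to -91 and on the other strand from -100 to -95 (site 2), and GAGGAA from -132 to -127 (site 3). The Abca1 window held CACGTG from -147 to -142, the loose DR4 from -67 to -53 on the strand opposite to the printed one, and TATAAA from -29 to -24. Among 32851 mouse promoter windows of 250 bases, 23.3% held GAGGAA, 12.4% TATAAA, 6.02% CACGTG and 0.621% the loose DR4. The strict DR4 was in 0.0152% of the windows and in none of the windows of the members. These are matches of letters, not measured binding.

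Apoe differed more between the microglia-like cells of libraries 1 and 2 than any other member with at least 50 UMIs over both. In library 1 these cells had 3584 Apoe UMIs, or 756 CPM (731 to 781). In library 2 they had 6147 UMIs, or 19643 CPM (19155 to 20140). The ratio of library 2 to library 1 was 26.0 (24.9 to 27.1). It rests on the names of clusters, since naming cells one by one moved the level of library 1 to 4462 CPM and that of library 2 to 15468 CPM. The single microglia-like cell of library 3 stood at 121 CPM.

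The higher level was spread over most microglia-like cells of library 2. The median cell had 74.5 CPM in library 1 against 5757 CPM in library 2, and the upper quartile was 430 CPM in library 1 against a lower quartile of 1044 CPM in library 2. Apoe reached at least 1000 CPM in 124 cells of library 1 (11.6%, 9.72 to 13.6) and in 50 cells of library 2 (76.9%, 64.8 to 86.5). At least 10000 CPM was reached by 9 cells (0.840%) and by 22 cells (33.8%). The single-cell values of the libraries nevertheless overlapped, since the highest cell of library 1 had 43658 CPM and that of library 2 had 78932 CPM, and 6 cells of library 2 had no Apoe UMI.

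**Figure D1:**
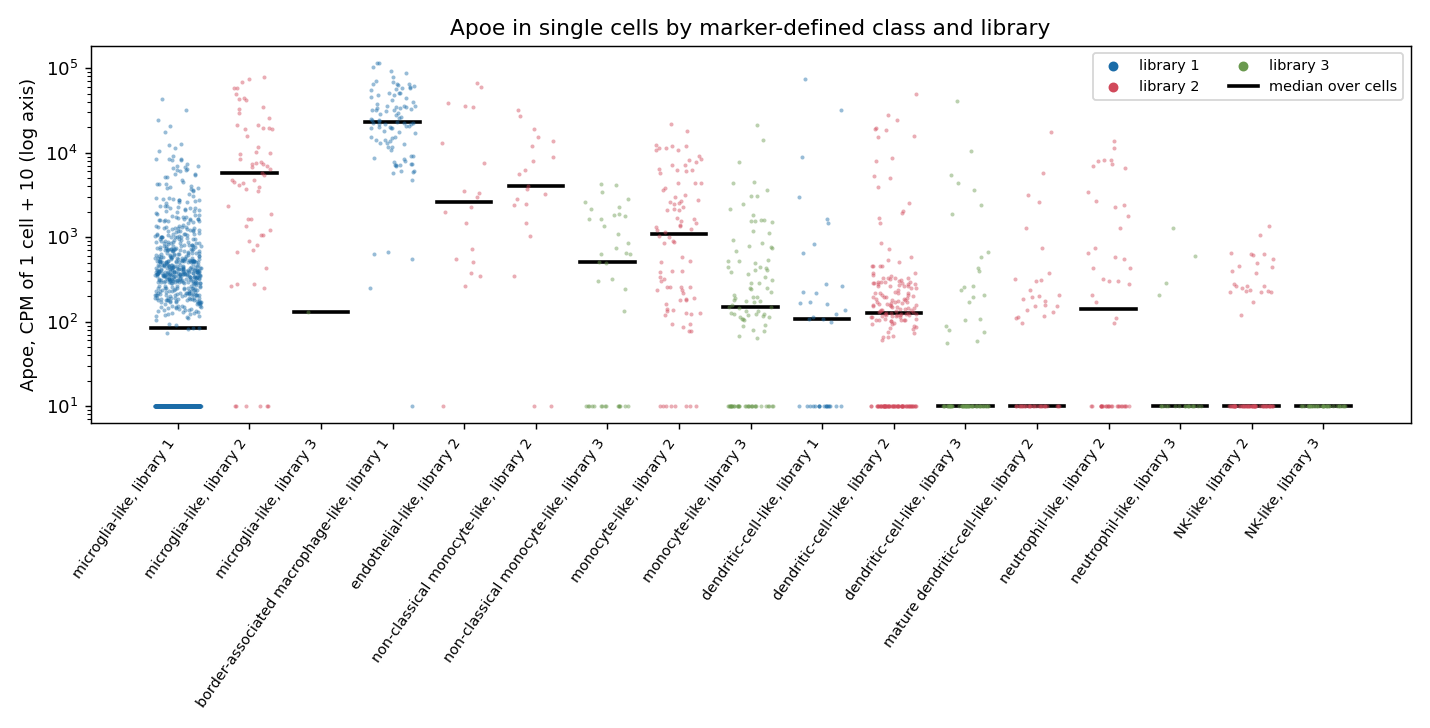
Apoe in single cells (CPM + 10, log axis) by class and library, for each combination with at least 20 cells and the 1 microglia-like cell of library 3, with each point a cell and each bar the median over cells. Cells without an Apoe UMI lie at the bottom; the median is 74.5 CPM in the microglia-like cells of library 1, 5757 CPM in those of library 2 and 22884 CPM in the border-associated-macrophage-like cells.

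Within each library the Apoe UMIs were concentrated in few cells. In library 1, the 107 highest cells held 76.8% of the Apoe UMIs of the microglia-like class, and in library 2 the highest 6 cells held 50.9%. Without the 5 highest cells of each library the levels were 582 CPM and 12565 CPM. Both microglia-like clusters showed the difference. The cluster led by the microglia genes P2ry13, P2ry12 and Slc2a5 had 655 CPM in library 1 against 6963 CPM in library 2 (37 cells), and the cluster led by the stress and immune genes Adamts1, Sgk1, Ccl3 and Il1a had 836 CPM and 28199 CPM (28 cells).

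A finer clustering (resolution 1.0) put 61 of the 65 microglia-like cells of library 2 into 2 of its 5 microglia-like clusters, and both also held cells of library 1. In the cluster led by Cd63, Pld3, Ctsl and Ctsb, genes of lysosomes, 25 cells of library 1 had 3567 CPM of Apoe (3216 to 3945) and 36 cells of library 2 had 7348 CPM (6881 to 7839). In the cluster led by Il1a, Ccl3, Adamts1 and Cd83, 198 cells of library 1 had 1070 CPM (1015 to 1128) and 25 cells of library 2 had 29691 CPM (28890 to 30509). The gap between the libraries was thus far narrower in the lysosomal cluster. Of the Apoc1 UMIs that the cells of library 2 had in these 2 clusters, 13 lay in the Il1a-led cluster and 1 in the other. Over all its cells, library 2 held 30 Apoc1 UMIs. These clusters were singled out after their values had been seen.

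Marker genes are set beside Apoe in these cells. The 12 microglia markers together had 39804 CPM in library 1 against 21416 CPM in library 2, with all 12 detected in each. The 11 markers of border-associated macrophages summed to 189 CPM and 115 CPM. In library 2 the 115 CPM came from the group of Pf4, Ms4a7, Stab1 and Clec12a. There Mrc1, Cd163, Folr2, Lyve1, Cd209f, Cbr2 and F13a1 were at 0, which allows up to 9.59 CPM for each in this smaller sum. Leaving out the 36 cells of library 1 and 1 cell of library 2 with 2 or more of those markers gave 672 CPM and 19046 CPM. Across cells, the Apoe share of UMIs and the share of microglia markers had a Spearman rho of -0.18 in library 1 (1071 cells) and -0.60 in library 2 (65 cells). For the share of border-associated macrophage markers the rho was 0.09 and 0.04. All these shares have the UMIs of the cell as denominator, and the part of the markers in the Apoe level was not tested.

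Naming cells one by one changed the level in library 1. Under this rule a cell is microglia-like if at least 0.3% of its UMIs come from the microglia markers and these outnumber the markers of every other class. It gave 4462 CPM over 1171 cells in library 1, with a median of 165 CPM, because it took in 84 of the 100 cells of the border-associated-macrophage-like cluster. In library 2 it gave 15468 CPM over 75 cells, with a median of 4788 CPM. In library 3 it found 25 cells, with 1412 CPM (1311 to 1518), a median of 184 CPM and 7 cells (28%) at 1000 CPM or more. Of these 25 cells, 22 lay in the monocyte-like cluster.

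The border-associated-macrophage-like cluster, whose 100 cells all came from library 1, had the highest summed Apoe level of the 16 combinations of class and library with at least 20 cells, at 23693 CPM (23404 to 23984). Its median cell had 22884 CPM, 78 cells reached 10000 CPM, and its highest cell had 114704 CPM. Its level was 31.3 times (30.3 to 32.5) that of the microglia-like cells of the same library. The cluster was led by Pf4, Cd209f, Ms4a7, Cbr2 and Mrc1, with Apoe itself among its 10 leading genes although Apoe was not used to cluster.

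This cluster also carried microglia markers: all 12 passed the naming rule, with a sum of 21910 CPM beside 3546 CPM for the border-associated macrophage markers. Its median depth was 9418.5 UMIs per cell against 3370 in the microglia-like cells. The 84 of its cells that were microglia-like by their own markers had 22116 CPM of Apoe, and the other 16 had 45061 CPM. Whether its cells are a mixture of types or doublets was not tested. At resolution 1.0 it separated into 57 cells with 24771 CPM and 43 cells that joined 23 cells of the dendritic-cell-like cluster. This joint cluster had 17023 CPM in its 55 cells of library 1 and 6674 CPM in its 11 cells of library 2.

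By summed counts, the order of the Apoe levels in library 2 was microglia-like, endothelial-like, non-classical-monocyte-like, monocyte-like, neutrophil-like, dendritic-cell-like, mature-dendritic-cell-like and NK-like. Below the microglia-like cells, endothelial-like cells had 17942 CPM (17051 to 18868), non-classical-monocyte-like cells 6983 CPM (6338 to 7676) and monocyte-like cells 2346 CPM (2241 to 2455). Neutrophil-like cells followed with 1793 CPM, although their median cell had 130 CPM and 5 of the 52 cells held 60.2% of the UMIs. They were followed by dendritic-cell-like cells with 958 CPM (913 to 1004) and mature-dendritic-cell-like cells with 885 CPM (796 to 982), whose intervals overlapped. NK-like cells, lymphoid cells that are not known as an Apoe source, had 126 CPM (86.8 to 177). The endothelial-like cluster was led by Ptgds, Ptn and Enpp2 beside Cldn5, and its median of 2607 CPM over 20 cells lay far below its sum and below the median of 4034 CPM of the non-classical-monocyte-like cells. It passed 4 astrocyte markers beside 6 endothelial ones. By their own markers, 10 of its 20 cells in library 2 were endothelial-like, with 1777 CPM (1362 to 2278), while 3 astrocyte-like and 3 oligodendrocyte-like cells held 647 and 753 of its 1519 Apoe UMIs.

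Apoe levels in library 3 lay below those in library 2, with intervals apart, in 4 of the 5 classes with at least 20 cells in both. Monocyte-like cells had 1053 CPM (1002 to 1106) and non-classical-monocyte-like cells 806 CPM (668 to 964), against 2346 and 6983 CPM in library 2. Neutrophil-like cells had 174 CPM (105 to 271), and NK-like cells had 0 Apoe UMIs, which allows up to 27.1 CPM. In these sums dendritic-cell-like cells were the exception, with 940 CPM (872 to 1013) in library 3 against 958 CPM in library 2, and with 1953 CPM in library 1. Their median cell was nevertheless lower in library 3, at 0 CPM against 115 CPM in library 2. Within library 3 the interval of the dendritic-cell-like class overlapped those of the monocyte-like and the non-classical-monocyte-like class.

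The sums of the dendritic-cell-like class rested on few cells. Its highest cells (the top 10 percent) held 91.1%, 88.9% and 92.7% of its Apoe UMIs in libraries 1, 2 and 3, and its median cell had 96.8, 115 and 0 CPM. The level in library 2 was 178 CPM when cells were named one by one. The monocyte-like class had medians of 1079 CPM in library 2 and 139 CPM in library 3. Its level in library 2 was 3884 CPM when the members and pathway genes were used in the clustering and 3957 CPM with at most 5% mitochondrial counts per cell, both more than 1.5 times the 2346 CPM above.

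**Figure D2:**
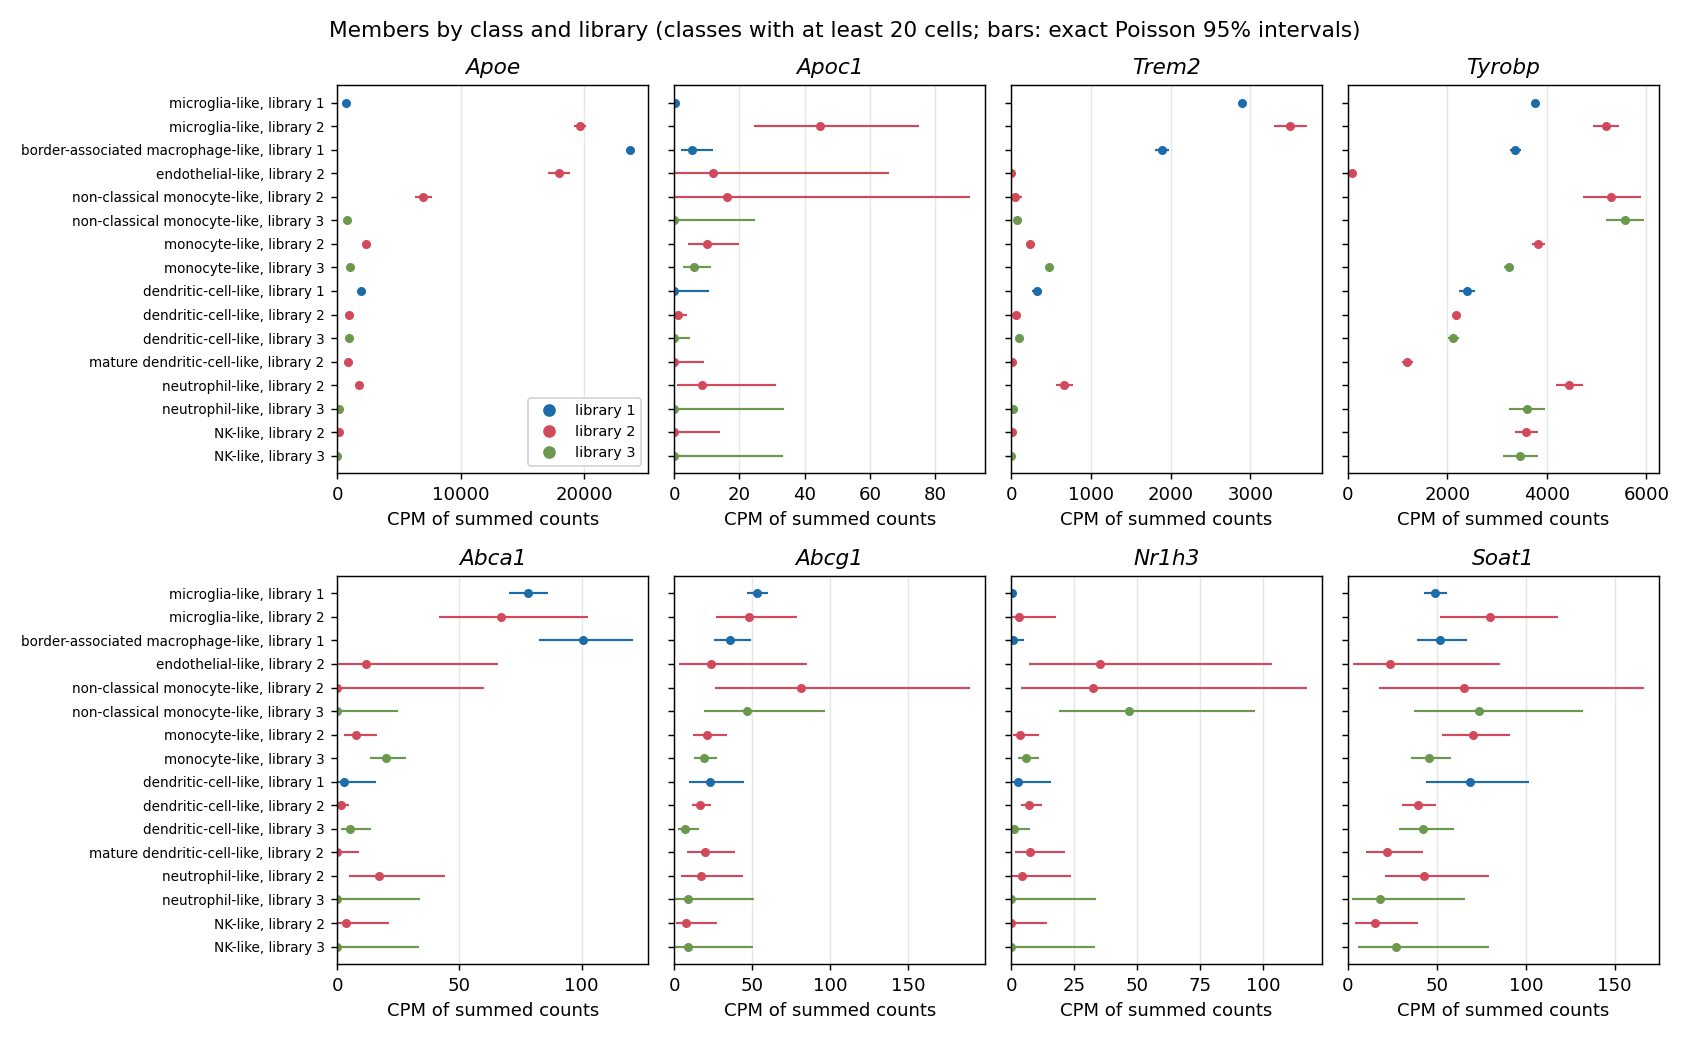
Levels of 8 members (CPM of summed counts, linear axes that differ between panels) in each class and library with at least 20 cells; points are class sums of 1 library and bars exact Poisson 95% intervals. Apoe is highest in the border-associated-macrophage-like cells (23693 CPM) and the microglia-like cells of library 2 (19643 CPM), Trem2 in both sets of microglia-like cells, and Tyrobp is above 1000 CPM in every row except the endothelial-like cells.

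By the names of clusters, the microglia-like cells of library 1 held a small part of its Apoe RNA, and this depended on the naming. They made up 84.9% of the cells of library 1 and held 11.6% (11.2 to 11.9) of its Apoe UMIs, while the border-associated-macrophage-like cluster, 7.93% of the cells, held 83.0% (82.6 to 83.4). With cells named one by one, the shares were 84.9% (84.5 to 85.3) for microglia-like and 10.3% for border-associated-macrophage-like cells. In library 2, microglia-like cells held 48.7% (47.8 to 49.6) from 10.9% of the cells, beside 14.9% in monocyte-like, 13.7% in dendritic-cell-like and 12.0% in endothelial-like cells. With doublets kept, the monocyte-like share of library 2 was 6.73%. That setting clustered and named all cells anew, and library 2 held only 1 cell marked doublet, with 0 Apoe UMIs. The cause of the shift was not tested. In library 3, monocyte-like cells held 61.0% (59.1 to 62.9) and dendritic-cell-like cells 26.6%, and the monocyte-like share fell to 25.2% with cells named one by one. The Apoe level over all cells was 4839, 3148 and 960 CPM in libraries 1, 2 and 3, an order that differs from that of the microglia-like cells.

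**Figure D3:**
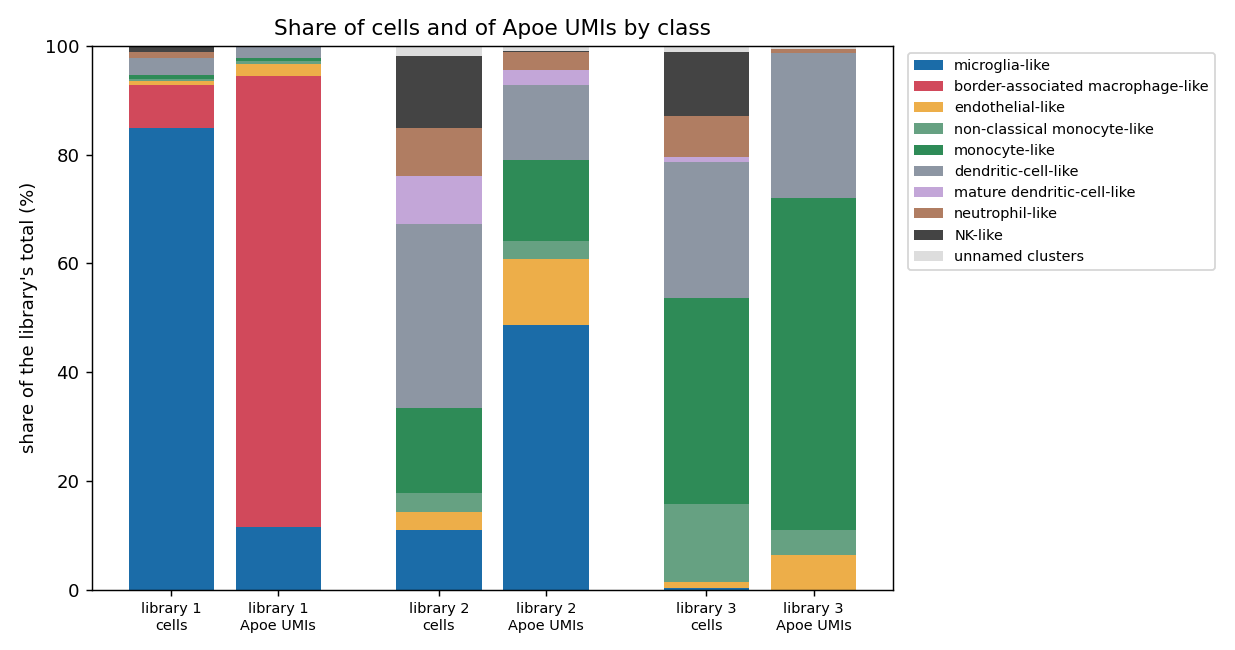
Stacked bars of the share of each library's cells and of its Apoe UMIs (percent, from 0) by class, with a pair of bars per library and classes by the names of clusters. In library 1 the microglia-like class is 84.9% of cells and 11.6% of Apoe UMIs; in library 2 it is 10.9% of cells and 48.7% of Apoe UMIs.

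Shares of cells with an Apoe UMI were compared after every cell had been thinned to 2000 UMIs. Apoe was then detected in 350 of 1004 microglia-like cells of library 1 (34.9%, 31.9 to 37.9; 67 shallower cells left out) and in 50 of 59 of library 2 (84.7%, 73.0 to 92.8; 6 left out). Without thinning the share in library 1 was 50.3%. NK-like cells, at a median depth of 3092 UMIs in library 2, are set beside them as cells that should lack the gene. Apoe was detected in 12 of 67 (17.9%, 9.61 to 29.2) in library 2, 3 of 11 (27.3%, 6.02 to 61.0) in library 1 and 0 of 31 in library 3. Before thinning, the 8 Apoe UMIs of the NK-like cells of library 1 lay in 3 of 13 cells, and microglia markers reached 1.71% of the UMIs of a cell of this class. Free RNA was not measured, and the source of these UMIs was not tested. The interval of the NK-like cells of library 1 includes the 34.9% of its microglia-like cells, so these shares could not be told apart. In dendritic-cell-like cells of library 2 the share was 29.7% (23.5 to 36.5), which also overlaps the NK-like interval.

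**Figure D4:**
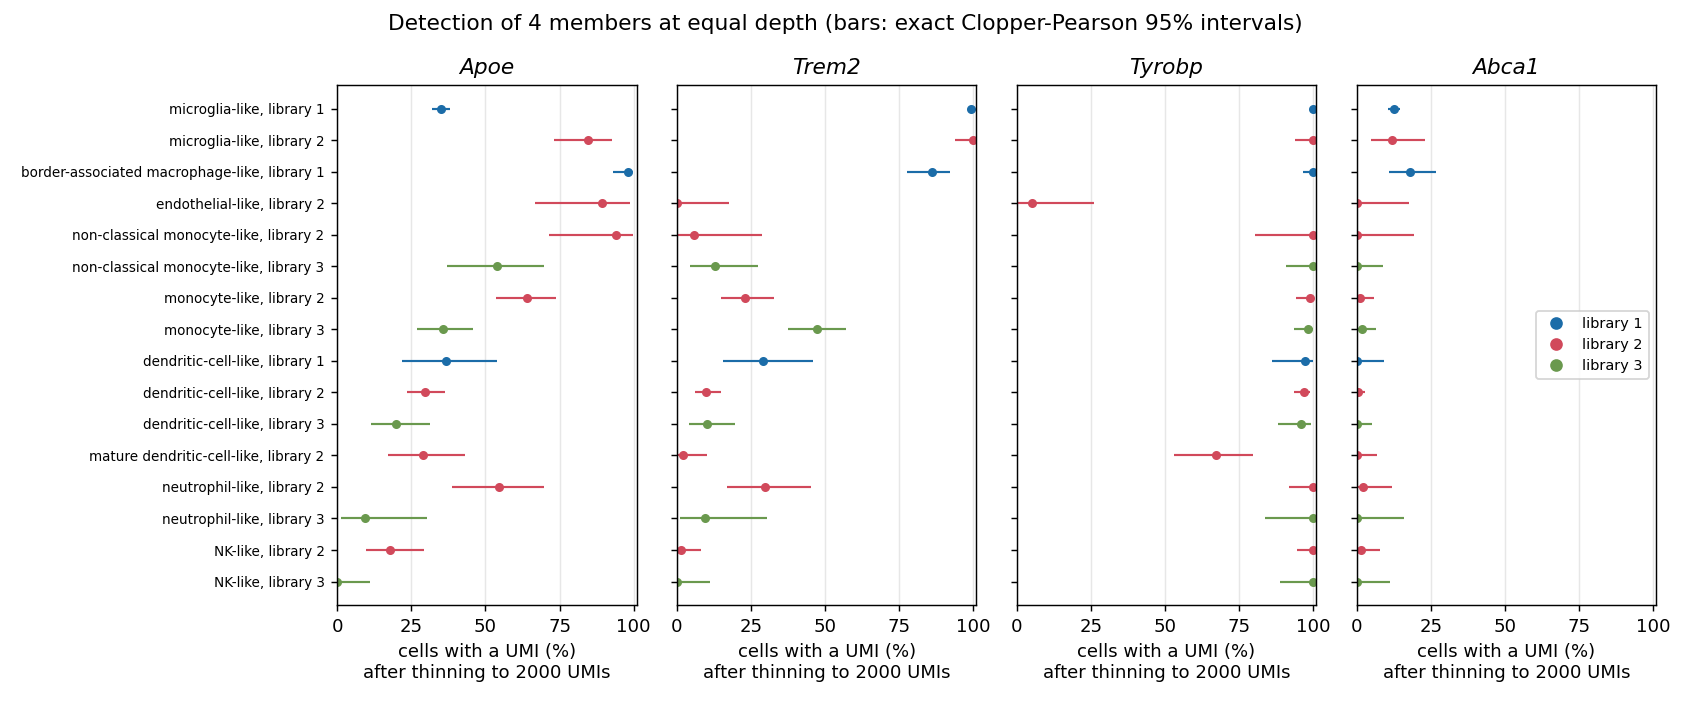
Percent of cells with at least 1 UMI of a member after thinning to 2000 UMIs per cell, by class and library with at least 20 cells; bars are exact Clopper-Pearson 95% intervals. Apoe is found in 34.9% of the microglia-like cells of library 1 and 84.7% of those of library 2, while Trem2 is found in 99.1% and 100%.

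The neighbouring apolipoprotein gene Apoc1 (chromosome 7, 19689481 to 19692660, minus strand), whose gene body ends 3448 bases from that of Apoe, was sparse, with 9, 30 and 10 UMIs in libraries 1, 2 and 3. Its UMIs followed the same order as those of Apoe in microglia-like cells. There was 1 UMI among 1071 cells of library 1 (0.211 CPM) and there were 14 among 65 cells of library 2 (44.7 CPM, 24.5 to 75.1), all in 5 cells, a ratio of 212 with an interval from 32.3 to 8968. The border-associated-macrophage-like cells had 6 Apoc1 UMIs (5.53 CPM, 2.03 to 12.0), and the monocyte-like cells 8 in library 2 and 9 in library 3. Apoc2, the cofactor of lipoprotein lipase, had 2 UMIs in all cells, too few for a level. The gene body of its first identifier lies within that of its second over 6358 of 6363 bases, so the count of either is uncertain.

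Trem2 was close in level between the microglia-like cells of both libraries where Apoe was not. Library 1 had 2899 CPM (2851 to 2948) and library 2 had 3499 CPM (3295 to 3713), a ratio of 1.21 (1.13 to 1.28). After thinning, 995 of 1004 cells (99.1%) and 59 of 59 cells (100%) had a Trem2 UMI, against 1 of 67 NK-like cells of library 2 (1.49%). Border-associated-macrophage-like cells had 1890 CPM, 0.652 times (0.622 to 0.683) the level of the microglia-like cells. Over cells thinned to 2000 UMIs, Apoe and Trem2 counts of microglia-like cells had a Spearman rho of 0.03 in library 1 (1004 cells) and -0.17 in library 2 (59 cells).

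Outside these classes Trem2 was low. In library 2, neutrophil-like cells had 662 CPM (562 to 775), from 14 of 52 cells, with a median of 0 and 66.9% of the UMIs in 5 cells. Monocyte-like cells had 240 CPM and dendritic-cell-like cells 66.9 CPM. Non-classical-monocyte-like cells, with 48.8 CPM, combined a low Trem2 level with the third highest summed Apoe level of library 2, and endothelial-like cells had 0 Trem2 UMIs, which allows up to 35.4 CPM. Monocyte-like cells of library 3 had 478 CPM (444 to 515). Within them, the 22 cells that were microglia-like by their own markers had 932 CPM of Trem2 and 1534 CPM of Apoe, and the other 84 had 277 CPM and 840 CPM.

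Tyrobp, the adaptor, was above 1000 CPM in every combination of class and library with at least 20 cells except the endothelial-like cells. Microglia-like cells had 3756 CPM in library 1 against 5186 CPM in library 2, a ratio of 1.38 (1.31 to 1.45), and border-associated-macrophage-like cells had 3360 CPM. Non-classical-monocyte-like cells reached 5290 CPM in library 2 and 5567 in library 3, and NK-like cells, which pair Tyrobp with receptors of their own, had 3582 and 3454 CPM. In library 2 the intervals of the microglia-like (4937 to 5445) and the non-classical-monocyte-like cells (4731 to 5898) overlapped. Dendritic-cell-like cells had 2387, 2173 and 2122 CPM in libraries 1, 2 and 3, and endothelial-like cells had 82.7 CPM in library 2.

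Abca1, the exporter that lipidates Apoe, could not be told apart within counting error between the microglia-like cells of libraries 1 and 2. Library 1 stood at 78.0 CPM (70.3 to 86.4) and library 2 at 67.1 CPM (41.5 to 103), a ratio of 0.86 (0.526 to 1.33) that rests on 21 UMIs in library 2. Border-associated-macrophage-like cells had 100 CPM (82.5 to 121), 1.29 times (1.03 to 1.60) the microglia-like level. In library 2 Abca1 was 8.93 times (3.49 to 27.0) higher in microglia-like than in monocyte-like cells, which had 6 UMIs, and 40.4 times (12.1 to 212) higher than in dendritic-cell-like cells, which had 3. The same ratios were 14.6 and 52.3 for Trem2, 8.37 and 20.5 for Apoe, and 1.35 and 2.39 for Tyrobp.

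Abcg1, the second exporter (chromosome 17, 31057675 to 31117988), had 52.9 CPM (46.6 to 59.9) in the microglia-like cells of library 1 and 47.9 CPM (26.8 to 79.1) in those of library 2. It had 35.9 CPM in border-associated-macrophage-like cells. Non-classical-monocyte-like cells had 81.4 CPM (26.4 to 190; 5 UMIs) in library 2 and 47.0 CPM (7 UMIs) in library 3, intervals that take in the microglia-like levels. Monocyte-like cells were lower, at 21.3 and 19.2 CPM, and dendritic-cell-like cells had 22.9, 16.6 and 6.77 CPM.

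Nr1h3 (chromosome 2, 91184061 to 91202834), the LXR alpha gene, had 4, 26 and 19 UMIs in libraries 1, 2 and 3. Its UMIs were few in microglia-like cells, with 2 in library 1 (0.422 CPM, up to 1.52) and 1 in library 2 (3.20 CPM, up to 17.8). Non-classical-monocyte-like cells had 47.0 CPM (18.9 to 96.8; 7 UMIs) in library 3, and dendritic-cell-like cells 7.19 CPM (13 UMIs) in library 2. Soat1 (chromosome 1, 156424525 to 156474331) was spread over the myeloid classes. It had 48.7 CPM (42.6 to 55.4) and 79.9 CPM (51.7 to 118) in the microglia-like cells of libraries 1 and 2, a ratio of 1.64 (1.04 to 2.48), 51.6 CPM in border-associated-macrophage-like cells and 70.1 CPM in the monocyte-like cells of library 2. NK-like cells had 15.3 CPM (4 UMIs) in library 2.

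The other genes of the pathway were read from 7 lists with 82 genes, by counting those at least 2-fold apart among genes with at least 50 UMIs over both sums. Between the microglia-like cells of libraries 2 and 1, 41 list genes could be tested in this way. Of these 5 were higher in library 2, where 2.43% of all 7161 genes were, and 9 were lower, where 18.6% of all genes were. The 9 lower genes are near the share of all genes, so their number shows nothing about the lists. The limit of 50 UMIs is on both sums together, and the sum of library 1 was the larger. Genes with few UMIs in library 2 therefore passed it through library 1, which favours lower calls. The median log2 ratio was -0.54 over the lists and -0.35 over all genes, and 6 of the 14 genes past the fold had 5 or fewer UMIs in one sum. Of the 6 members tested, only Apoe passed the fold.

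Among the 5 higher genes was Lpl, lipoprotein lipase, an LXR target, with 278 CPM in library 2 and 9.28 CPM in library 1, a ratio with an interval from 20.6 to 44.1. From the list of lysosomal release, storage and oxidation, 3 of 7 genes were higher. These were Nceh1, which hydrolyses cholesterol esters, at 67.1 against 10.8 CPM (6.24, 3.56 to 10.6), the lipid droplet coat gene Plin2 at 76.7 against 30.4 CPM (2.52, 1.57 to 3.91), and Npc2, which binds cholesterol in the lysosome, at 2083 against 1010 CPM (2.06). The fifth was the sorting receptor Sorl1, at 28.8 against 9.49 CPM (3.03, 1.30 to 6.28).

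The 9 lower genes included the lipoprotein receptor Lrp1, an Apoe receptor, at 99.1 CPM in library 2 against 198 CPM in library 1 (0.50, 0.337 to 0.714). Stard3, which moves cholesterol between membranes, had 89.5 against 183 CPM (0.488), and Adam17, a protease that sheds Trem2, 19.2 against 49.6 CPM (0.387, 0.141 to 0.855). The other 6, among them the lipoprotein receptor gene Scarb1 and the sterol genes Insig1, Nsdhl, Scap and Srebf1, rested on 1 to 5 UMIs in library 2. The intervals of these 6 ratios include 1, with Insig1 lowest at 0.178 (0.00446 to 1.02). Of the 11 tested genes of Trem2 signalling and shedding, 0 were higher, where 2.43% of all 7161 genes were, and 1 (Adam17) was lower, where 18.6% were. With so few genes, 0 higher is near the share of all genes and shows nothing about the list. Hcst (DAP10) had a ratio of 1.35, Cd33 0.869 and the kinase gene Lyn 0.619. Within 2-fold lay also Mylip (0.572), which marks the LDL receptor for degradation, the exporter Abca9 (0.705), the lysosomal cholesterol transporter Npc1 (0.695), the receptor chaperone Lrpap1 (1.57) and the synthesis genes Dhcr7 (1.62) and Fdps (ratio interval 0.504 to 2.46). None of the 9 other apolipoprotein genes had enough UMIs. With at least 200 UMIs over both sums, 1 list gene remained higher and 3 lower.

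**Figure D5:**
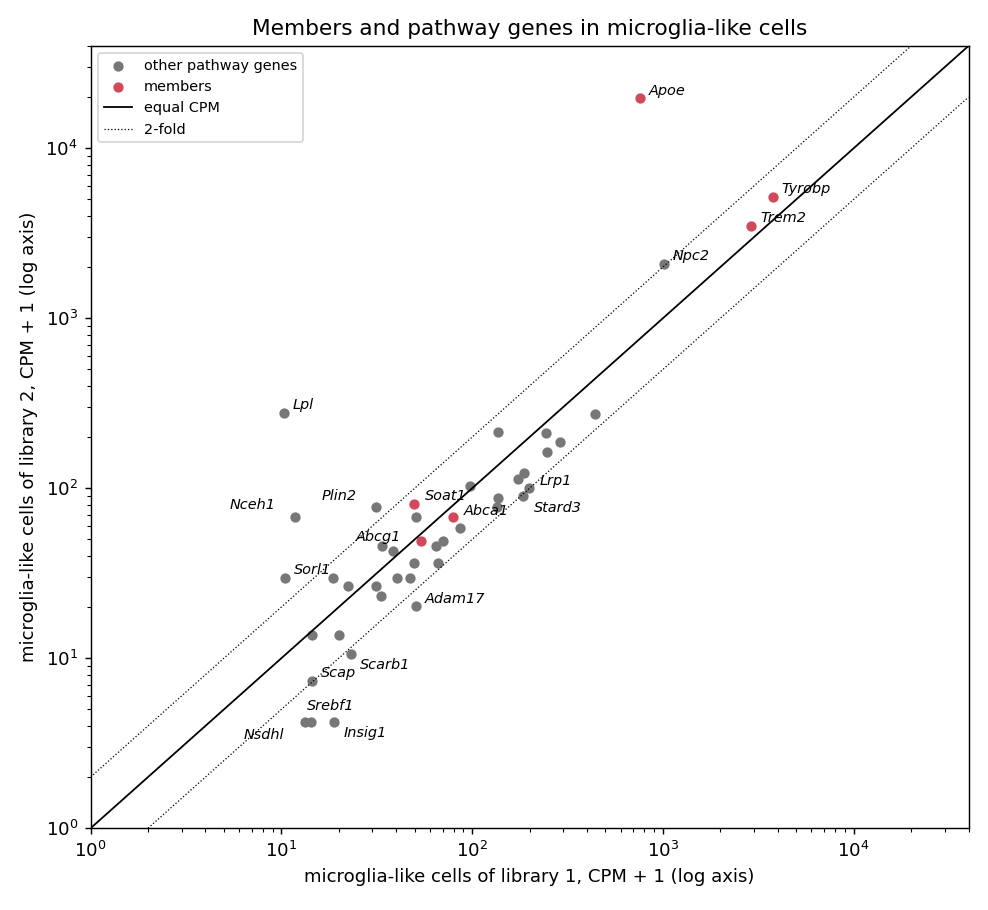
Members and reported pathway genes with at least 50 UMIs in microglia-like cells of library 1 (horizontal, CPM + 1, log axis) and library 2 (vertical, same scale); each point is a gene, the solid line marks equality and the dotted lines 2-fold. Apoe (756 against 19643 CPM) and Lpl (9.28 against 278 CPM) lie farthest above the line, while Trem2, Tyrobp, Abca1, Abcg1 and Soat1 lie within 2-fold.

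Between the border-associated-macrophage-like and the microglia-like cells of library 1, 7 of 48 list genes were at least 2-fold higher, where 3.4% of all 7610 genes were, and 0 were lower, where 2.64% of all genes were. The phospholipid transfer protein gene Pltp had 83.9 against 0.633 CPM (3 UMIs in microglia-like cells). The scavenger receptors Cd36 and Msr1 had 50.7 against 1.27 CPM and 38.7 against 2.11 CPM, ratios of 40.1 (17.3 to 114) and 18.4 (9.06 to 41.0). The other 4 were the synthesis gene Cyp51 (3.75), Plin2 (2.73), Lpl (2.28) and the sterol hydroxylase gene Cyp27a1 (2.06). The lowest ratios, all within 2-fold, were those of Stard3 (0.588), Scap (0.614), Lpcat3 (0.623), Lyn (0.637) and Vav1 (0.642). The UMI limit is on both sums together. Pltp, Cd36 and Msr1 had few UMIs in the microglia-like cells and passed it through the border-associated-macrophage-like sum. For this reason 7 of 48 does not show that the lists as a whole were higher in those cells. With at least 20 UMIs over both sums 11 list genes were higher. With at least 200, 2 of 26 list genes were, where 76 of all 3622 genes were.

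In library 2, the monocyte-like cells had 2 of 17 list genes higher than the microglia-like cells, where 18.3% of all 2474 genes were, and 6 lower, where 14.8% were. Plin2 was higher, at 234 against 76.7 CPM (3.05, 1.99 to 4.89), and so was Sorl1 (2.13). Lpl was lower, at 30.1 against 278 CPM, as were the phospholipid-remodelling enzyme Lpcat3 (23.8 against 121 CPM), Lrpap1, Stard3, Inpp5d and Cd33. Lpl was among the 10 leading genes of the monocyte-like cluster all the same, and it had 314 CPM in the monocyte-like cells of library 3. Of the 4 members tested, Apoe and Trem2 were lower and none was higher.

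In library 2, 8 of the 10 genes of cholesterol synthesis with enough UMIs were higher in dendritic-cell-like than in microglia-like cells, under a limit that favours this direction. Over all lists 11 of 34 genes were higher, where 19.5% of all 3858 genes were, and 11 lower, where 15.3% were. The list of synthesis and its control held 8 of the 11 higher genes among its 10 tested, with a median log2 ratio of 1.97. Idi1 had 58.1 against 3.20 CPM (18.2, 3.19 to 725) and Sqle 36.5 against 3.20 CPM (11.4, 1.98 to 458). Of these 8, 7 had 5 or fewer UMIs in the microglia-like cells, and with at least 200 UMIs 0 list genes were higher and 2 lower. The limit of 50 UMIs is on both sums together, and the dendritic-cell-like sum was the larger. A gene with few UMIs in the microglia-like cells therefore passed only through its UMIs in the dendritic-cell-like cells. For this reason 8 of 10 does not show that the synthesis list as a whole was higher there. The lower genes included Lpl (19.9 against 278 CPM), Lpcat3, Nceh1, Lipa, Lrp1 and Lrpap1, and all 4 members tested, Apoe, Trem2, Tyrobp and Soat1, were lower.

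The genes whose pattern was most like that of a member were found by Pearson's r of log2(CPM + 10) over the 16 combinations of class and library, among 5981 genes with at least 200 UMIs. These points share libraries, classes and total counts, and r is a description. For Apoe they were Cebpg (0.863), Rock2 (0.860), Wsb2 (0.851), St7l (0.829) and Cyp27a1 (0.824). For Trem2 they included the Fc receptor gene Fcgr1 (0.954), Hexa (0.953) and the complement gene C1qc (0.951), and for Tyrobp they were Fcer1g (0.980), another signalling adaptor, Limd2, Cd53, Gpsm3 and Lcp1. Abca1 was followed by Liph (0.953), Sall3, Capn3, Ang and Mertk, Abcg1 by Slc12a2 (0.879), Rgmb, Abcc5, Sort1 and Sec14l1, and Soat1 by AF251705 (0.879), Lrrc25, Nfe2l2, Cd68 and Capza2. With 50 in place of 10 added to the CPM, 3, 4, 5, 2, 2 and 4 of the 5 genes remained for Apoe, Trem2, Tyrobp, Abca1, Abcg1 and Soat1. No gene was shared by any pair of these lists. With 5 genes taken from 5981, shared genes would be rare in any case, so nothing is read from this.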

How the data were processed

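The authors deposited 1 matrix of UMI counts per gene and cell for the whole series, with Cell Ranger 2.0.1 and the mouse build mm10 named per the submitters' processing notes. How barcodes were called cells, and whether doublets had been removed, is not given in the sources used here. The counts are not normalized. Nothing ties the barcode suffixes to the groups. The members, gene lists and settings were chosen with earlier results of these data known.

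Cells with under 500 detected genes or over 10% mitochondrial counts (5 cells) were dropped. Scrublet (scanpy 1.11.5, rate set to 5%) marked 9 doublets (0.42%), also dropped. The low yield means that doublets may remain. Counts scaled to 10000 per cell and log-transformed gave 2000 variable genes, 30 principal components, 15 neighbours and, with igraph 0.11.9 under Python 3.11.15, Leiden clusters at resolution 0.5. Members and pathway genes were left out of the variable genes. A marker counted for a cluster when at least 30% of its cells had a UMI and its CPM reached 2 times the median of the clusters. At least 3 markers had to count for a name, and markers among the 10 leading genes decided. This scoring was settled after clusters had been seen, and 5 listed marker genes are not analysed here. The unnamed clusters held 7 and 8 cells.

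Ratios were called at 2-fold among genes with at least 50 UMIs over both sums. A sum of 0 was set to 3 counts as its upper limit. Named genes were all members in classes of at least 20 cells, for each pathway list the 2 highest and 2 lowest ratios, and the 5 genes most like each member with at least 200 UMIs. Npc2, Scap, Lpcat3, Lipa and the other list genes past the fold were named after their values were seen. A few genes that the rule names are not reported here. Thinning drew 2000 UMIs per cell at random with a fixed seed. The code for ratios was tested on simulated data.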

Additional observations from a re-analysis of the deposited data

Results flagged for a closer look

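Apoe was present in cells that the comparisons leave out. The 6 cells marked doublets in library 3 had 21 Apoe UMIs of 108704, or 193 CPM, against 0 in its NK-like cells. The 4 cells of library 2 below the filter on genes or mitochondrial counts had 283 Apoe UMIs of 9987, or 28337 CPM, above the 126 CPM of its NK-like cells. Neither set belongs to a class, and the source of these counts was not tested.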

How the results depend on the processing

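No paired analysis was possible because each group has 1 sample, the matrix ties no cell to a group, and the results come from no test. Apoe levels depended on which cells a class holds. Naming cells one by one added 84 border-associated-macrophage-like cells with 22347 Apoe UMIs to the microglia-like cells of library 1. The cause of the other shifts was not tested. Keeping doublets, or changing a filter, the resolution or the genes used for clustering, also clustered and named all cells anew. Under the alternatives run, 23 values of Trem2 and Tyrobp in microglia-like cells stayed within their counting intervals and 5 moved beyond them. For Apoe, 6 values stayed and 12 moved. These tallies are not like for like. Leaving out cells with border-associated macrophage markers, or the 5 highest cells, was run for Apoe only. All Apoe values moved there, and removing the highest cells lowers Apoe by construction. Abca1, Abcg1, Soat1, Apoc1 and Nr1h3 rest on so few UMIs in library 2 that differences inside their intervals were not detectable at this depth.

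For the microglia-like cells of library 1 (756 CPM), Apoe was 805 CPM with all genes in the clustering, 4462 CPM with cells named one by one, 820 CPM with doublets kept, 840 CPM with at least 1000 genes per cell, 633 CPM as the mean of cells, 672 CPM without cells with border-associated macrophage markers and 582 CPM without the 5 highest cells. For library 2 (19643 CPM) it was 15468 CPM with cells named one by one, 20687 CPM with at least 1000 genes, 14380 CPM as the mean of cells, 19046 CPM without cells with those markers and 12565 CPM without the 5 highest cells. Naming cells one by one gave Trem2 2697 and 2895 CPM and Tyrobp 3678 and 4877 CPM in libraries 1 and 2, and the mean of cells gave Tyrobp 3685 CPM in library 1.

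In border-associated-macrophage-like cells, Apoe was 21388 CPM at resolution 1.0, 63766 CPM with cells named one by one, which left 11 cells, 23366 CPM with at most 5% mitochondrial counts and 30678 CPM as the mean of cells. In monocyte-like cells of library 2 it was 3884 CPM with all genes, 3437 CPM with cells named one by one, 3789 CPM with doublets kept, 3957 CPM with at most 5% mitochondrial counts, 3568 CPM with at least 1000 genes and 2963 CPM as the mean of cells. In those of library 3 it was 1128 CPM at resolution 1.0, 832 CPM with cells named one by one, 1245 CPM with doublets kept, 1278 CPM with at most 5% mitochondrial counts and 878 CPM as the mean of cells. In dendritic-cell-like cells of library 2 it was 669 CPM at resolution 1.0, 1182 CPM with all genes, 178 CPM with cells named one by one, 1219 CPM with doublets kept, 1191 CPM with at most 5% mitochondrial counts, 1222 CPM with at least 1000 genes and 1258 CPM as the mean of cells.

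With doublets kept, the share of Apoe UMIs was 12.6% for microglia-like cells of library 1, 6.73% for monocyte-like cells of library 2 and 58.3% for those of library 3, which had 66.8% at resolution 1.0. With cells named one by one, a setting added after seeing the data, the shares in library 1 were 84.9% for microglia-like and 10.3% for border-associated-macrophage-like cells. In library 2 they were 51.6% for microglia-like and 12.97% for monocyte-like cells, and in library 3 25.2% for monocyte-like cells. Apoe was detected in 24.1% of the microglia-like cells of library 1 when thinned to 1000 UMIs and in 50.3% without thinning, and in 31.6% of NK-like cells of library 2 without thinning. Trem2 was detected in 94.1% and 100% of the microglia-like cells of library 1 in these settings.

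List genes higher in the microglia-like cells of library 2 numbered 3 at 3-fold and 1 with at least 200 UMIs, and lower ones 3 and 3. In border-associated-macrophage-like cells, 4 were higher at 3-fold, 11 with at least 20 UMIs and 2 with at least 200. In monocyte-like cells 1, 9 and 1 were higher under these settings, and 11 and 0 were lower with at least 20 and 200 UMIs. In dendritic-cell-like cells 17 and 0 were higher with at least 20 and 200 UMIs, and 7, 17 and 2 were lower at 3-fold and with at least 20 and 200 UMIs.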
